A study of Drosophila melanogaster with 6 samples.

Results

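The cyclic AMP (cAMP) pathway genes of fly learning were described here by 4 genes of the 6 in the rule, measured with 6 probe sets of 15131, every probe set whose array annotation names exactly 1 gene and that gene is *rut*, *dnc*, *Pka-R1* or *CrebB*. The rule also takes *Pka-C1*, the main catalytic subunit of protein kinase A, and *Pka-R2*, its type II regulatory subunit. These 2 genes were not analysed here, because no probe set that was used names either of them as its only gene. The genes were chosen by their known place in cAMP signalling, after the age difference of *rut* (40 against 10 days) had been seen in these data, so the age differences of all members are given as a description and support no further statement.

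In *Drosophila melanogaster*, adenylyl cyclases make cAMP when G protein coupled receptors are stimulated, and phosphodiesterases break it down. cAMP frees the catalytic subunits of protein kinase A from their regulatory subunits, and the kinase then acts on ion channels, synaptic proteins and the transcription factor CrebB. The mutants *rutabaga* and *dunce* were found by their poor olfactory learning, and the pathway is known above all for its work in the Kenyon cells of the mushroom body, a memory centre of the fly brain.

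RNA came from 6 pools, labelled as heads of Canton S flies, a wild-type laboratory strain, and was measured on Affymetrix 3' expression arrays. There were 3 pools of flies aged 40 days and 3 of flies aged 10 days, with 75 to 100 heads per pool per the labels, and neither age had a mutation or a treatment named. The labels call the pools independent biological replicates, numbered 1 to 3 at each age, and call the flies female. All values are log2 expression as deposited, with 2.06 as the lowest value of the table. A difference is the mean at 40 days minus the mean at 10 days, and a probe set was tested where its mean over the 6 arrays was at least 4.

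The head and sex labels were checked against marker genes before the results. All 8 genes of the male reproductive list were bright in every sample, with a median of 14.44, while the 3 measured ovary genes lay under 4, with *osk* and *vas* at 2.06. Accessory gland and testis genes at such levels go against both the head and the female label, and every age comparison here is between pools so labelled. The yolk protein genes *Yp1* and *Yp3* averaged 7.29 and 8.86, and *Yp2* lay under 4 at 3.61. Whether the sex content of the pools differed between the ages was not tested. Neuron markers were present, with all 6 measured genes above 4 and a median of 9.97. Of 4 measured mushroom body markers, *mub* and *toy* averaged 10.66 and 7.56, and *ey* and *prt* lay under 4. The arrays had medians between 7.51 and 7.53, so none stood apart by its scale. Both samples of replicate number 2 did stand apart on the first principal component of the tested probe sets, with 45.6% of the spread. They lay at 20.1 for 40 days and 26.8 for 10 days, while the other 4 lay below 0. On that component number 1 lay at -21.5 for 40 days and -17.9 for 10 days, and number 3 at -2.1 and -5.5.

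The members fell into those above and those at the floor of the table. The probe set of *dnc* (1624686_a_at) and one of *Pka-R1* (1635156_s_at) were at 8.91 or higher in all 6 samples. The probe set of *rut* (1628594_at) was above the limit of 4 in all 6, and both probe sets of *CrebB* and the second one of *Pka-R1* lay at the floor of the table. So 3 of the 6 probe sets passed the filter, 1 each for *rut*, *dnc* and *Pka-R1*. The nearest member above the limit of 4 was *rut* with a mean of 5.83, and the nearest below it was *CrebB* at 2.07. Levels of different probe sets depend on their probes and are not set against each other.

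**Figure D1:**
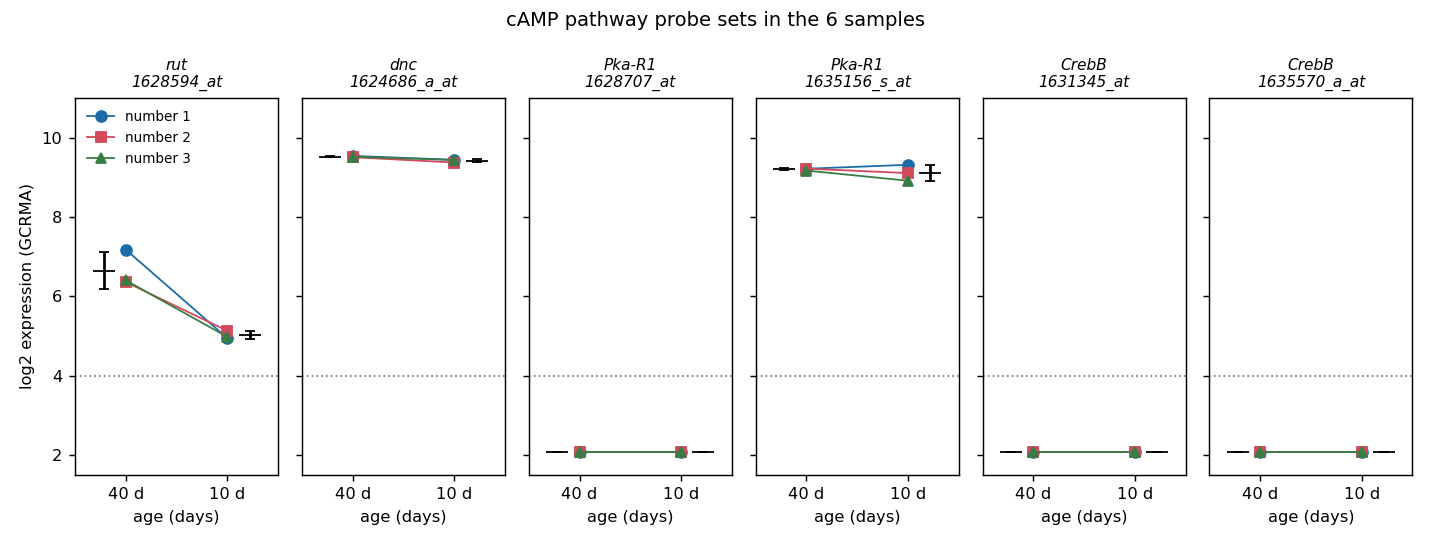
Log2 expression (vertical axis) of the 6 member probe sets at 40 days and 10 days, 1 panel per probe set. Points are single samples, lines join samples of the same replicate number, black bars are the mean and SD of 3 samples, and the dotted line marks the limit of 4 for testing. The *rut* samples of 40 days all lie above those of 10 days, *dnc* and the brighter *Pka-R1* probe set differ by 0.11 and 0.09, and the other 3 panels lie at the floor.

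The gene *rut* encodes a calcium and calmodulin responsive adenylyl cyclase, the enzyme that makes cAMP in learning, and it showed the widest age difference of the members. Its log2 expression was 7.17, 6.36 and 6.40 in the 40-day samples of numbers 1, 2 and 3, against 4.94, 5.13 and 4.98 in the 10-day samples. All 40-day samples lay above all 10-day samples, with a gap of 1.23 between the nearest of them. The means were 6.64 ± 0.46 at 40 days and 5.02 ± 0.10 at 10 days (SD, n = 3 each), a difference of 1.63 ± 0.23 (SE of the limma fit), or 3.09-fold. In pooled samples, more cells that hold the transcript and more transcript per cell cannot be told apart.

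The size of the *rut* difference varied between the replicate numbers, but its direction did not. The 40-day sample exceeded the 10-day sample of the same number by 2.23 for number 1, by 1.23 for number 2 and by 1.42 for number 3, which is 4.70-fold, 2.35-fold and 2.68-fold. Number 1 gave the widest difference, through the 40-day sample at 7.17. Without that sample the difference was 1.36 ± 0.09 (SE), and without both samples of number 2 it was 1.83 ± 0.28. The 40-day samples were more scattered than the 10-day ones, and the spread of *rut* within an age, a pooled SD of 0.33, was wider than that of 89.7% of tested probe sets, where the median was 0.13.

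On the array as a whole, *rut* lay a little below the middle of the range of levels at 40 days and lower at 10 days. It ranked between percentiles 41.4 and 47.1 of all probe sets in 40-day samples and between 34.9 and 35.8 in 10-day samples. A difference at least as far above 0 was seen for 15 of the 10286 tested probe sets, *rut* included, or 0.146%. In either direction, a difference of its size or more was seen for 30, or 0.292%. The median difference of all tested probe sets was 0.0070, and the median size of a difference was 0.12. The 10-day values are low, and the part of the background correction of the deposited values in the fold change of *rut* was not tested.

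**Figure D2:**
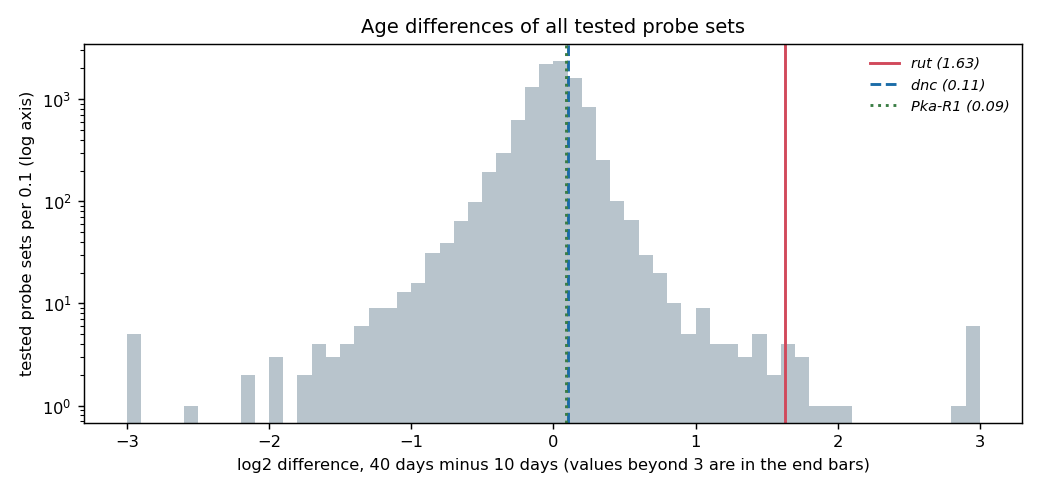
Number of tested probe sets (vertical, log axis) by log2 difference between 40 and 10 days (horizontal), with lines at the 3 tested members. The *rut* line at 1.63 stands in the thin upper tail, where 15 probe sets have a difference at least as high, and the lines of *dnc* at 0.11 and *Pka-R1* at 0.09 stand in the bulk.

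The gene *dnc* encodes a cAMP phosphodiesterase, which breaks down what the cyclase makes, and its values hardly differed between the ages. They were 9.54, 9.51 and 9.52 in 40-day samples 1, 2 and 3, against 9.44, 9.37 and 9.43 in 10-day samples. All 40-day samples lay above all 10-day samples, but the gap between the nearest was 0.065. The means were 9.52 ± 0.02 at 40 days and 9.42 ± 0.04 at 10 days (SD, n = 3 each), a difference of 0.11 ± 0.06 (SE), or 1.08-fold.

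Each replicate number gave a small positive difference for *dnc*, of 0.10, 0.13 and 0.09, and the difference was 0.09 without both samples of number 2. The spread of *dnc* within an age was among the narrowest on the arrays, with a pooled SD of 0.029 and only 1.91% of tested probe sets below it. A difference of its size or more, in either direction, was seen for 53.6% of tested probe sets. The suffix of this probe set marks, in the maker's naming, probes shared by several transcripts of 1 gene. *dnc* is a long gene with many transcripts, and the single value does not tell them apart.

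The gene *Pka-R1* encodes the type I regulatory subunit, which holds the kinase inactive until cAMP binds, and 1 of its 2 probe sets was above the limit for testing. It gave 9.21, 9.22 and 9.17 in 40-day samples 1, 2 and 3, against 9.31, 9.10 and 8.91 in 10-day samples. The ages overlapped, and both the highest and the lowest value came from 10-day samples. The means were 9.20 ± 0.03 at 40 days and 9.11 ± 0.20 at 10 days (SD, n = 3 each), a difference of 0.09 ± 0.11 (SE).

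The replicate numbers did not share a direction for *Pka-R1*. The differences were -0.10, 0.11 and 0.26 for numbers 1, 2 and 3, and without the 10-day sample of number 3 the difference changed sign, to -0.0091 ± 0.0884. Without both samples of number 2 it was 0.08 ± 0.16. The other probe set (1628707_at) was at 2.06 in all 6 samples. The suffix of the brighter probe set marks, in the maker's naming, probes that can match more than 1 transcript or gene, although its annotation names *Pka-R1* alone.

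The gene *CrebB* encodes a cAMP response element binding protein, a transcription factor known for its work in long-term memory. Its probe sets read 2.06 (1631345_at) and 2.07 (1635570_a_at) the same in each of the 6 samples. They give no information on a change with age. A transcript below what these probes detect is not shown to be absent.

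As a set, the members gave 1 wide and 2 small differences. Without the replicate block, limma with Benjamini-Hochberg adjustment called 0 of the 3 tested member probe sets, beside 0.34% of all tested probe sets, and 1 of 3 had an unadjusted p under 0.05, beside 13.1%. With the replicate number as a block it called 1 of 3, *rut*, beside 1.92%, and 1 of 3 had an unadjusted p under 0.05, beside 25.1%. Without the 40-day sample of number 1 and without the block it also called *rut*. The ages did not overlap for 2 of the 3, *rut* and *dnc*, beside 19.8% of all tested probe sets. Since *rut* was known when the genes were chosen, nothing is read from these counts.

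Other genes of the pathway were taken from lists by role, 89 genes in all, of which 75 had a probe set of their own and 54 at least 1 that was tested. No probe set of the 61 tested was called without the block, beside 0.34% of all, and 5 had an unadjusted p under 0.05, beside 13.1%. With the block limma called 1 of 61, beside 1.92%, and it was lower at 40 days. In that fit 14 of 61 had an unadjusted p under 0.05, beside 25.1%. The ages did not overlap for 13 of 61, beside 19.8% of all tested probe sets. The median difference was 0.02, against 0.0070 over all tested probe sets, and 33 were above 0 and 28 below.

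**Figure D3:**
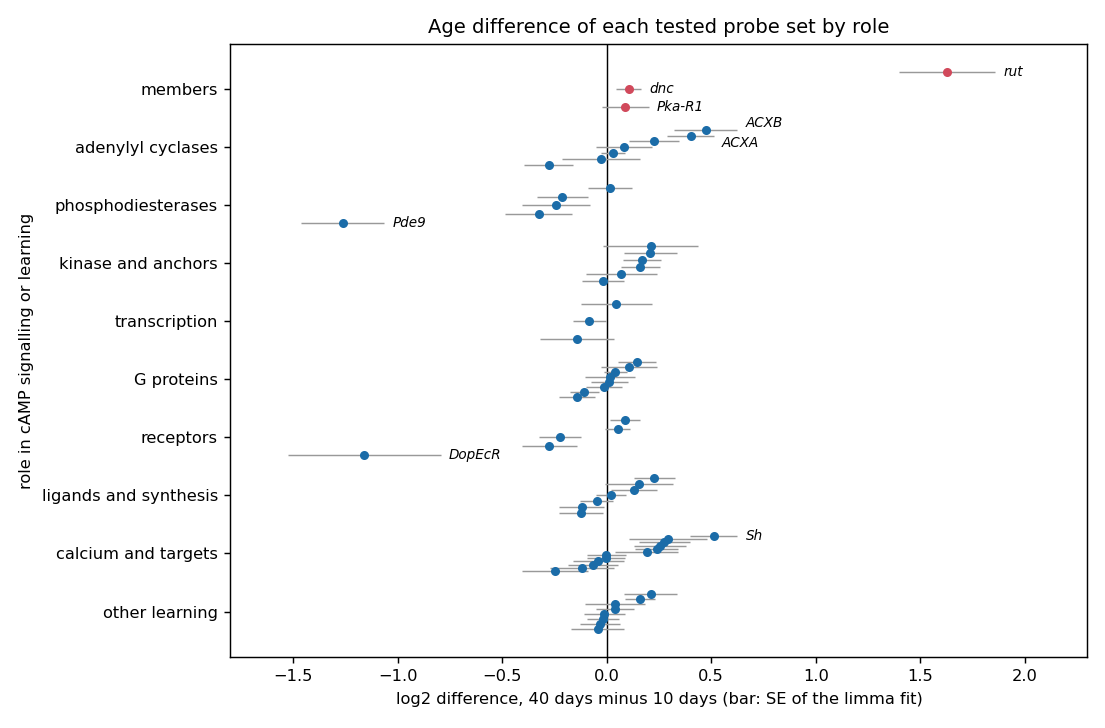
Log2 difference between 40 and 10 days (horizontal) of each tested probe set, by role (vertical), with the SE of the limma fit as bars, members in red and other pathway genes in blue. Most lie within 0.5 of 0, *rut* stands at 1.63, and *Pde9* and *DopEcR* stand at -1.26 and -1.16.

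Among the other adenylyl cyclases, 7 of 8 genes with a probe set were tested, none was called with or without the block, and the differences ran from -0.28 to 0.47. The *ACX* cyclases are known from the male germ line, unlike *rut*. *ACXA* had 8.74, 8.80 and 8.88 in 40-day samples, against 8.42, 8.21 and 8.59 in 10-day samples, a difference of 0.40 ± 0.11 (SE; limma adjusted p = 0.266). *ACXB* and *ACXC* gave 0.47 and 0.23 (limma adjusted p = 0.311 and 0.467), also without overlap, and *ACXC* gave 0.10 without the 10-day sample of number 2. *ACXE* gave 0.03, with overlap. *ACXD*, too dim to be tested, averaged 3.21 ± 0.16 at 40 days and 3.46 ± 0.23 at 10 days (SD, n = 3 each), lower at 40 days for each number. In the male reproductive list 7 of 8 genes were above 0, with differences from 0.20 to 0.27 for the sperm genes *betaTub85D*, *Mst84Dd* and *Mst84Db* and from 0.03 to 0.11 for *Acp36DE*, *Mst57Da*, *Acp98AB* and *Acp53Ea*. The sperm gene *dj* went the other way, with 8.32 ± 0.04 at 40 days and 9.50 ± 0.09 at 10 days (SD, n = 3 each), a difference of -1.18. The summed level of the male reproductive list ran from 17.57 to 17.69 at 40 days and from 17.32 to 17.72 at 10 days (log2 of the sum). Its brightest genes, led by *Acp53Ea* at a mean of 15.45, dominate this sum, which can hide changes of dimmer sperm genes. The part of the list in these differences was not tested. *Ac76E* gave -0.28 (limma adjusted p = 0.393), and *rut* was the only cyclase tested here with a difference of at least 2-fold, a size seen for 1.02% of all tested probe sets.

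The other phosphodiesterases gave 4 of 5 tested differences below 0, beside 48.2% of all tested probe sets, and 1 of 5 passed the test with the block, beside 1.92%. *Pde9*, whose mammalian counterpart breaks down cyclic GMP, had 4.82, 5.09 and 4.93 in 40-day samples, against 5.94, 6.05 and 6.65 in 10-day samples. All 40-day samples lay below all 10-day samples, with means of 4.95 ± 0.13 at 40 days and 6.21 ± 0.38 at 10 days (SD, n = 3 each). The difference was -1.26 ± 0.20 (SE), with limma adjusted p = 0.104 without the block and 0.0434 with it, and it was -1.41 ± 0.26 without both samples of number 2 (adjusted p = 0.309, no block). A dimmer probe set of *Pde9* lay under 4 and was not tested. *Pde1c*, *Pde8* and *Pde11* gave -0.32, -0.24 and -0.21 (limma adjusted p from 0.446 to 0.551).

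On the kinase side, none of the 6 tested probe sets was called, with differences from -0.02 to 0.21. *Pka-C3*, a gene for another protein kinase A catalytic subunit, gave 0.17 ± 0.09 (SE; limma adjusted p = 0.483). The anchoring protein genes *rg*, *nvy* and *Akap200* gave 0.16, 0.21 and 0.21 (limma adjusted p from 0.496 to 0.724). Of the genes that act on transcription beside CrebB, the coactivators *Crtc* and *nej* gave -0.14 and 0.05, and the kinase gene *Sik3* gave -0.08 (limma adjusted p from 0.682 to 0.934). The direction of *Akap200* and of *nej* turned when single samples were left out.

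Upstream of the cyclase, the 8 tested G protein probe sets had differences from -0.14 to 0.14, and none was called. *Gbeta76C*, *Galphai*, *Galphao* and *Galphaq* gave -0.14, -0.11, 0.14 and 0.04 on their brightest probe sets, with 0.11 and -0.01 on dimmer ones of *Galphaq*. Amine and peptide receptors were mostly too dim to be tested, with 11 of the 16 genes under 4. *DopEcR*, a receptor for dopamine and ecdysteroids, had 3.72, 5.20 and 4.47 in 40-day samples, against 5.64, 5.77 and 5.45 in 10-day samples. The ages did not overlap, but the 40-day samples were scattered, and the difference of -1.16 ± 0.36 (SE) did not pass (limma adjusted p = 0.310, and 0.101 with the block). *5-HT1A*, *Dh31-R* and *Dop2R* gave -0.22, -0.27 and 0.09. With *5-HT1A* and *Dh31-R*, the ages did not overlap for 3 of the 5 tested receptor probe sets, beside 19.8% of all tested, and these were lower at 40 days.

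Among ligands and their synthesis, *Pdf*, *Dh31*, *Vmat* and *Ddc* gave 0.23, 0.13, -0.12 and -0.12 on their brightest probe sets. Dimmer tested probe sets of *Vmat* gave -0.05 and 0.16, and none of the 7 tested probe sets was called. *amn*, named after the memory mutant *amnesiac*, was at 2.06 in every sample. Of the calcium signalling genes and channels, 12 probe sets were tested and none was called. *Nf1*, the neurofibromin gene known to act on cAMP in fly learning, gave 0.24 ± 0.10 (SE; limma adjusted p = 0.403) on its brightest probe set and 0.28 on a dimmer one. The channel genes *Sh* and *slo* gave 0.25 and -0.25 on their brightest probe sets, with 0.51 on a dimmer one of *Sh* (limma adjusted p = 0.203), and *CanA1*, a calcineurin subunit gene, gave 0.19. Of the other learning genes, *orb2*, *scb*, *14-3-3zeta* and *Appl* gave 0.16, 0.21, 0.04 and -0.03, none of them called, and *rad* was at 2.06.

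Marker lists of the cell types that the samples could hold were read beside *rut*, and their part in its difference was not tested. The summed level of the 6 measured neuron markers ran from 13.95 to 14.07 at 40 days and from 13.85 to 14.09 at 10 days (log2 of the sum), with 3 genes above and 3 below 0 and a median difference of -0.0030, the lowest of them *nSyb* at -0.24. That of the 4 measured mushroom body markers ran from 10.80 to 10.91 at 40 days and from 10.58 to 10.94 at 10 days. Among these *mub* gave 0.12 and *toy* -0.42, and the brightest genes dominate each sum. The glia list ran from 13.59 to 13.82 at 40 days and from 13.73 to 13.95 at 10 days, with 5 of 6 genes lower at 40 days, among them *e* at -0.72 and *GLaz* at -0.59. The muscle list ran from 13.39 to 13.49 at 40 days and from 13.29 to 13.43 at 10 days, with 3 of 4 genes higher at 40 days, a median of 0.38, and *TpnC73F* and *Act88F* at 0.60 and 0.56. The fat body list ran from 17.02 to 17.10 at 40 days and from 17.05 to 17.10 at 10 days, with 4 of 6 genes higher and a median of 0.38. Its yolk protein genes *Yp1*, *Yp2* and *Yp3* gave 2.01, 0.998 and 0.76, with an SD between 0.47 and 1.75 at each age. The rest of that list hardly differed, with *Cyp4g1*, *apolpp* and *FASN1* at 0.00098, -0.0049 and -0.12. The 3 measured photoreceptor markers ran from 15.59 to 15.78 at 40 days and from 15.64 to 15.72 at 10 days.

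The genes whose values most resembled those of *rut* were found by the root mean square difference over the 6 samples, after each probe set was centred on its own mean. Among 9276 tested probe sets with 1 gene, *Rnf11* was nearest at 0.22, then *Hus1-like* at 0.26, *Fst* at 0.30, *qjt* at 0.31 and *CG17944* at 0.32. The sixth was at 0.33, and the median probe set at 0.86. As *rut* varies mainly with age, all 5 were higher at 40 days in each sample. *Fst*, known for its induction by cold, averaged 10.36 ± 0.36 at 40 days and 8.95 ± 0.13 at 10 days, and *Hus1-like*, a gene for a DNA damage checkpoint protein, 6.43 ± 0.36 at 40 days and 5.20 ± 0.04 at 10 days (SD, n = 3 each).

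Differences between the ages were 1.62, 1.23, 1.41, 1.16 and 1.40 for these genes in the same order. The 40-day sample of number 1, highest for *rut*, was also highest for *Rnf11*, *Hus1-like* and *qjt*, but not for *Fst* or *CG17944*.

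**Figure D4:**
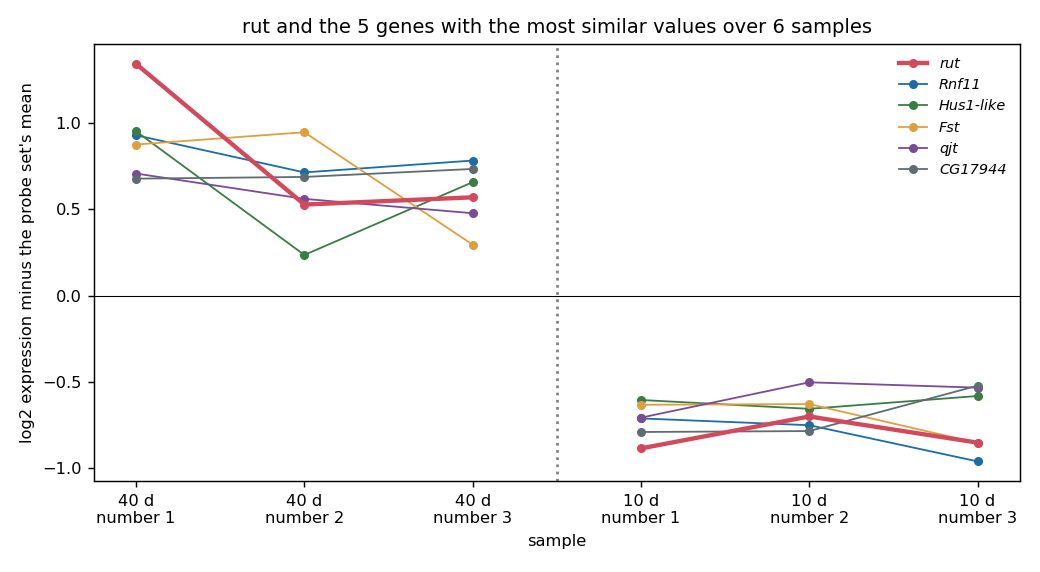
Log2 expression minus the mean of each probe set (vertical) in the 6 samples (horizontal) for *rut*, thick red, and the 5 genes most like it. Every line is above 0 at 40 days and below 0 at 10 days, and *rut* reaches the highest point, in the 40-day sample of number 1.

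The chromosomal surroundings of the members were read from the RefSeq gene order. *rut*, *dnc* and *CrebB* lie on chromosome X and *Pka-R1* on 3L. Of the 3 nearest genes with a probe set on each side of *rut*, 5 had differences between -0.74 and 0.14 on their tested probe sets, among them *Ag5r2* at -0.74 and *CG14411* at 0.14. The other, *CG14410*, had 7.94, 7.60 and 8.06 in 40-day samples, against 7.23, 4.04 and 6.97 in 10-day samples. Its ages did not overlap, and its difference of 1.79 was widened by the low 10-day sample of number 2 (SD 1.77 at 10 days). A link between this neighbour and the *rut* difference was not tested. The span of *Pka-R1* overlaps *Mst77F*, a spermatid gene that averaged 14.14 ± 0.01 at 40 days and 13.99 ± 0.08 at 10 days (SD, n = 3 each). Whether any probe of the bright *Pka-R1* probe set reads that region was not tested.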

How the data were processed

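The deposited values are log2 expression per probe set, made by the authors with GCRMA (background correction, normalization between arrays, summary per probe set), per the submitters' processing notes, from 150 ng of RNA per sample, per the labels' protocols. Sources used here do not give the GCRMA version, filters or detection calls. The log2 scale was read from the values, 2.06 to 16.10. Precision is limited by having 6 arrays.

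Probe sets were named through the array annotation, with symbols updated by RefSeq gene ID (Release 6 plus ISO1 MT): 13333 had 1 gene, 390 several and 1408 none. The age fit used lmFit and eBayes with a trend, two-sided, from limma 3.58.1 (R 4.3.3), over 10286 probe sets with a mean of at least 4, with Benjamini-Hochberg adjustment over all of them and a threshold of 0.05. The fit was run on simulated data with noise independent between samples. It recovered 76% of changes of 1 and 98% of changes of 2 (log2), with 6 false among 180 calls. With 100 changes planted at each size, the calls outnumbered the 35 of the real fit. The adjusted threshold is easier to pass when more probe sets change, so these shares do not carry over to the real data. The simulation held no correlation between samples of the same number, so it does not cover that feature of the data. Tables and plots used Python, pandas 2.3.3 and matplotlib 3.10.9.

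Replicate numbers come from the titles. After the age means were removed, samples of the same number correlated at 0.707, 0.772 and 0.353. Each 40-day sample correlated best with the 10-day sample of its own number. The main fit nevertheless leaves the numbers out, and the calls of *rut*, *Pde9*, *Hus1-like* and *Fst* change with that choice. SEs and adjusted p-values are therefore from the fit without the block, unless the block is named. Values with the block are given where a call differs.

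From each role list, up to 4 genes with the smallest p on their brightest probe set were named, with the 5 genes most like *rut*. *Pde9* and *DopEcR* meet this rule, while *ACXD* and *ACXE* were named outside it. The genes *CG14410*, *Ag5r2*, *CG14411*, *Mst77F*, *amn*, *rad* and the markers named were chosen after their values were seen. Members and lists were chosen with earlier results of these data known. Alternatives were other filters, centring, quantile normalization, other variance models, the block, array weights, a floor at 4, and samples left out.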

Additional observations from a re-analysis of the deposited data

How the results depend on the processing

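With the replicate number as a block, called member probe sets numbered 1 instead of 0, and called pathway probe sets 1 instead of 0. The block made *rut* (limma adjusted p = 0.0432), *Pde9* (0.0434), *Hus1-like* (0.0373) and *Fst* (0.0152) pass and changed no other call among the genes named. With single samples left out, called member probe sets ran from 0 to 1 and called pathway probe sets stayed at 0. The *rut* difference ran from 1.36 to 1.83 over 15 alternatives (limma adjusted p from 0.0172 to 0.262), and the filter at 6 gave no value for it. It passed with the block and without the 40-day sample of number 1. *dnc* ran from 0.08 to 0.12 and never passed (adjusted p from 0.318 to 0.760). *Pka-R1* ran from -0.0091 to 0.19, and turned without the 10-day sample of number 3. With 1 sample left out, *Akap200* ran from -0.0086 to 0.38, *nej* from -0.12 to 0.22, *14-3-3zeta* from -0.038 to 0.11 and *Appl* from -0.084 to 0.060, so the direction of each turned. Small differences that never passed also moved in size with 1 sample left out: *ACXC* ran from 0.10 to 0.31, *Pde1c* from -0.45 to -0.21, *Pde8* from -0.39 to -0.091, *Pde11* from -0.30 to -0.099, *slo* from -0.33 to -0.091 and *CanA1* from 0.042 to 0.29. Without both samples of number 2, *nej* was at -0.089. The causes were not tested. The mean over all probe sets of a gene was not run, since no member has more than 1 tested probe set. The runs for named genes outside the members were added after the data were seen. Without the block, *Hus1-like* passed without the 40-day sample of number 2 and *Fst* without that of number 3. *qjt* lost its call without the 10-day sample of number 3 or the 40-day sample of number 2, and *qjt*, *Rnf11* and *CG17944* lost it without both samples of number 2. Low signal over background limits *rut*, *CrebB*, *Pde9* and other dim genes, among them *DopEcR* and *ACXB* with means of 5.04 and 4.58.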
